A study of Mus musculus with 8 samples.

Results

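The 10 genes described here are 3 receptors for fibroblast growth factors (Fgfr1, Fgfr2 and Fgfr3) and 7 genes of the feedback and transcriptional output of the receptor to ERK cascade (Spry1, Spry2, Spry4, Spred1, Dusp6, Etv4 and Etv5). They were taken by symbol from a table of 24346 genes, and all 10 were in the table with a mean of at least 1 FPKM (fragments assigned to a transcript, divided by its length and by library size). The genes were chosen from the genotype differences in these same FPKM values, so those differences are described below without a test, and tests are given only for other genes. RNA-seq was performed on 8 cultures of mouse immature oligodendrocytes (iOLs), 4 called Med23+/+ and 4 called Med23-/-. The cells started as oligodendrocyte precursor cells (OPCs) taken from brains at postnatal day 7 by panning on an antibody to CD140a, the PDGF receptor alpha on the surface of OPCs, after lectin-coated dishes had depleted endothelial cells and microglia. Both genotypes were first grown in Sato medium with the mitogens PDGF-AA (10 ng/mL) and NT-3 (1 ng/mL). The medium was then switched for 1 day to Sato medium with 15 nM T3 (triiodothyronine, which drives OPCs to differentiate) and 10 ng/mL CNTF, a cytokine. The study names neither mitogen for this second medium. No FGF is named among the additives. Med23-/- cells came from Med23 fl/fl;Olig1-cre mice, in which Cre made wherever Olig1 is active removes floxed Med23, a subunit of the Mediator complex that links transcription factors to RNA polymerase II. The study's control mice were Med23 fl/fl littermates, with floxed alleles and no Cre, although the labels call the control cultures WT. The sources also do not say whether the 4 replicates of a genotype were separate animals or pools, so every p-value below measures the spread between libraries.

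FGFs bind receptor tyrosine kinases together with heparan sulphate, and the activated receptor signals through the adaptor FRS2, RAS, RAF and MEK to the ERK kinases. ERK signalling switches on its own brakes: Sprouty and Spred proteins act on the cascade upstream of ERK, and the phosphatase DUSP6 removes the activating phosphates from ERK itself. The Ets transcription factors ETV4 and ETV5 are also induced by this signal, and for that reason the transcripts of these genes are widely read as a record of FGF and ERK activity. In the oligodendrocyte lineage FGF receptors act at several stages, and FGF2 is known to keep OPCs dividing in culture.

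Depth is unknown because read counts were not used. From the spacing of the lowest FPKM values, 1 read was worth between 0.742 and 1 times its worth in Med23+/+ replicate 1, and between 15941 and 16469 genes were above 0 in a library. Med23, the targeted gene, was at 12.7, 12.2, 12.6 and 12.6 FPKM in the Med23+/+ libraries and at 8.40, 7.93, 8.49 and 8.21 FPKM in the Med23-/- libraries, so its transcript was lower in all 4 but still present. The study judged the deletion at the protein level, by western blot of primary OPCs, which these transcript values do not measure. For the genes of interest 1 library stood apart: Med23-/- replicate 4 had the highest value of its genotype for 6 of the 7 feedback and Ets genes, and differences are therefore also given without it. In bulk RNA, fewer cells of a type and less RNA per cell cannot be told apart.

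The stretch just upstream of the transcription start is shown for the receptor that differed most and for 4 of the feedback and Ets genes. The study also examined the transcription factor Sp1, whose known binding motif is the GC box. Capitals mark each match to the letters GGGCGG on either strand. Sequences are from RefSeq on GRCm38.p6, read 5′ to 3′ on the strand of the gene, and stop before the first annotated exon.
Spry1 (chr3:37639697-37639946, plus strand): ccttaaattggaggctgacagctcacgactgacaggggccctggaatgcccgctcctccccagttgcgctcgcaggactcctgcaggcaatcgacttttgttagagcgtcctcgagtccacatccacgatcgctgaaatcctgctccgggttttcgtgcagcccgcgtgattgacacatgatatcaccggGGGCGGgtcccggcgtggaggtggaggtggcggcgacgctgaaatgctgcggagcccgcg
Spry2 (chr14:105896820-105897069, minus strand): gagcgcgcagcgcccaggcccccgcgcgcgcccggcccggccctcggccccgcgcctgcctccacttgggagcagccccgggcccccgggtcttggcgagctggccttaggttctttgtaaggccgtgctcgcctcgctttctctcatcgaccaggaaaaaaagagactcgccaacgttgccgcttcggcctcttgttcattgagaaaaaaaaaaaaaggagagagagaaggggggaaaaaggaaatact
Dusp6 (chr10:99262981-99263230, plus strand): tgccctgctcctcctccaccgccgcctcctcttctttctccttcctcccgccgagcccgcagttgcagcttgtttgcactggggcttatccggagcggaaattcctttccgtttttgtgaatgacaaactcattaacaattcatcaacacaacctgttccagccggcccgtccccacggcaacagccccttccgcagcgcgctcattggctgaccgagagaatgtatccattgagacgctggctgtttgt
Etv5 (chr16:22439720-22439820, minus strand): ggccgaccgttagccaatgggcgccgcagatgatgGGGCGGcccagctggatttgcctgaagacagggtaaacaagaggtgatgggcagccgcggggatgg
Fgfr3 (chr5:33721474-33721673, plus strand): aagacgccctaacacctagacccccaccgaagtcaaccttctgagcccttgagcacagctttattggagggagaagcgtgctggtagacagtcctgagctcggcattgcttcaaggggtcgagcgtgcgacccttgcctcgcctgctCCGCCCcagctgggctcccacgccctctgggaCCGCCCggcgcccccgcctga
Windows of 250 bases upstream were found for 7 of the 10 genes, and not for Fgfr1, Spry4 and Etv4. Over the full windows the GC box matched 3 times in Fgfr3 and Etv5, 2 times in Spred1, 1 time in Spry1 and 0 times in Spry2, Dusp6 and Fgfr2. The windows of Fgfr3 and Etv5 ran into annotated exons of the gene itself. Before those exons, in the stretches shown above, Fgfr3 had 2 matches and Etv5 had 1. The second annotated start of Fgfr3 had 2 matches and that of Etv5 had 0. Genes that were higher in Med23-/- cells thus stood on both sides of this count, as did the receptors. Of 32851 such windows of all genes, 32.7% held the motif, and of the 11940 windows of genes tested here 58.5% did. The longer Ets motif CCGGAA matched 0 times in every window of the 7 genes that had one. Of all windows 12% held a match, and of the windows of genes tested here 21.8% did. Its core GGAA, which lies inside it, matched 0 to 6 times, against 93.4% of all windows and 92.8% of those of genes tested here with at least 1. These are matches of letters and say nothing of binding.

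In GRCm38 coordinates with GENCODE vM21 gene models, Fgfr1 lies at chr8:25513654-25575718, Fgfr2 at chr7:130162451-133123350, Fgfr3 at chr5:33721674-33737068, Spry1 at chr3:37639947-37644598, Spry2 at chr14:105891947-105896819, Spred1 at chr2:117121374-117182279, Dusp6 at chr10:99263231-99267489, Etv4 at chr11:101769742-101785371 and Etv5 at chr16:22381309-22439719, and Spry4 is on chromosome 18. Exons of the Fgfr2 model overlap exons of Ctbp2 on the same strand, and Ctbp2 had a mean of 18.4 FPKM, so reads of the lowly expressed Fgfr2 may be shared with it. Fgfr1 overlaps the antisense gene Gm16159, which had a mean of 0.404 FPKM, and whether the counting used strand is not given in the sources used here.

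Among the receptors, Fgfr1 was higher and Fgfr3 lower in Med23-/- iOLs, and Fgfr2 was low in both genotypes. Fgfr3, the receptor with the highest level in Med23+/+ cells, was at 28.9, 23.3, 23.9 and 20.9 FPKM in the 4 Med23+/+ libraries and at 5.39, 5.79, 5.70 and 3.61 FPKM in the 4 Med23-/- libraries. Every Med23+/+ library was far above every Med23-/- library, with no overlap. The means were 24.2 ± 3.34 and 5.12 ± 1.02 FPKM (SD, n = 4 each), 4.73-fold higher in Med23+/+ cells, and the difference on the log2(FPKM + 1) scale, Med23-/- minus Med23+/+, was -2.05 with a standard error (SE) of 0.14. Fgfr1 went the other way, at 13.5, 10.7, 9.64 and 11.9 FPKM in Med23+/+ and 27.4, 26.5, 22.2 and 25.2 FPKM in Med23-/- libraries. Here too the genotypes did not overlap, and the lowest Med23-/- library was well above the highest Med23+/+ library. The mean was 11.4 ± 1.63 against 25.3 ± 2.29 FPKM, 2.21-fold higher in Med23-/- cells, a log2 difference of 1.09 (SE 0.11). Fgfr2 was at 3.27, 3.16, 2.13 and 1.96 FPKM in Med23+/+ and at 2.09, 1.79, 1.95 and 1.65 FPKM in Med23-/- libraries. These ranges overlapped: Med23+/+ replicates 1 and 2 were above all Med23-/- libraries, while replicates 3 and 4 were among them. The Fgfr2 log2 difference was -0.32 (SE 0.15), being -0.52 in replicates 1 and 2 alone and -0.12 in replicates 3 and 4 alone. The other two receptors gave nearly the same difference in both subsets, 1.10 and 1.07 for Fgfr1 and -2.03 and -2.07 for Fgfr3. Leaving out each library in turn moved the log2 difference of Fgfr1 between 1.02 and 1.16 and that of Fgfr3 between -2.12 and -1.92.

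**Figure D1:**
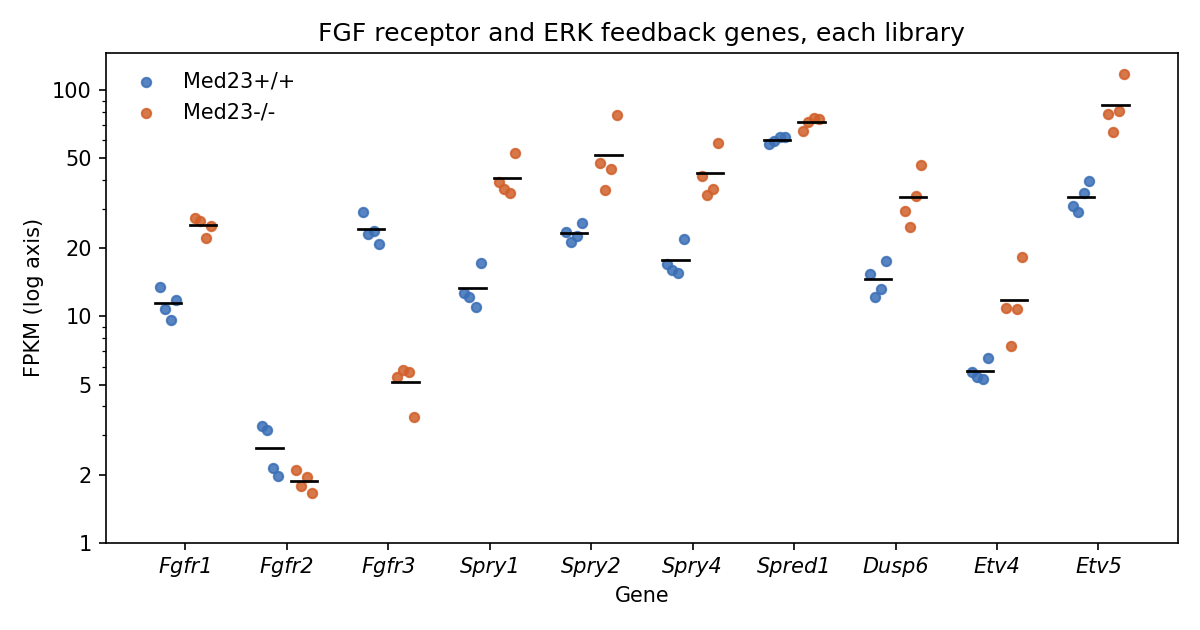
FPKM (log axis) of the 10 genes in each library, Med23+/+ in blue and Med23-/- in orange, with points in the order of replicates 1 to 4 and the mean as a bar. Of the 10 genes, 8 sit higher in every Med23-/- library, Fgfr3 sits lower, and only Fgfr2 overlaps.

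Because FPKM is scaled by transcript length, the 3 receptors can be set against each other within a library. Fgfr3 made up 63.3, 62.6, 67.0 and 60.2% of the summed receptor FPKM in the Med23+/+ libraries and 15.5, 17, 19.1 and 11.9% in the Med23-/- libraries. Fgfr1 made up 29.5, 28.9, 27.0 and 34.2% in Med23+/+ and 78.5, 77.8, 74.4 and 82.7% in Med23-/- libraries. The leading receptor transcript was thus Fgfr3 in all 4 control libraries and Fgfr1 in all 4 Med23-/- libraries. The ratio of Fgfr1 to Fgfr3 was 0.475 ± 0.0683 in Med23+/+ and 5.13 ± 1.32 in Med23-/- cells (SD, n = 4 each), with no library between 0.568 and 3.89. Fgfr2 kept a small share, 6.82 ± 1.3% and 5.80 ± 0.588%, whose ranges overlapped. The summed receptor level differed much less than its makeup, at 38.3 ± 4.97 FPKM (34.8 to 45.6) in Med23+/+ and 32.3 ± 2.55 FPKM (29.8 to 34.8) in Med23-/- cells. The ranges of the sums met, since the highest Med23-/- library and the lowest Med23+/+ library both stood at 34.8 FPKM.

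**Figure D2:**
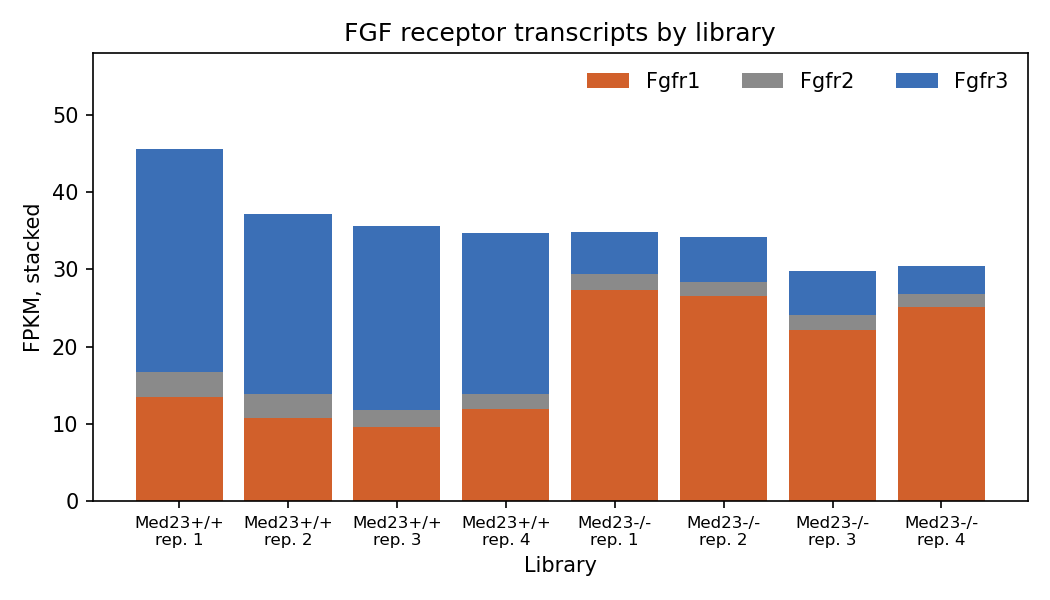
Stacked FPKM of Fgfr1, Fgfr2 and Fgfr3 in each of the 8 libraries. Bars are of similar height, 29.8 to 45.6 FPKM, while the mean Fgfr1 share is 29.9% in Med23+/+ and 78.4% in Med23-/- libraries and the mean Fgfr3 share is 63.3% and 15.9%.

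All 4 inhibitors of the Sprouty and Spred family were higher in Med23-/- cells. Spry1 differed most, at 12.8, 12.2, 11.0 and 17.2 FPKM in Med23+/+ and 39.3, 36.4, 35.3 and 52.5 FPKM in Med23-/- libraries. The means of 13.3 ± 2.70 and 40.9 ± 7.95 FPKM made it 3.07-fold higher in Med23-/- cells, a log2 difference of 1.55 (SE 0.15). Replicate 4 was the highest of its genotype in both groups, and the genotypes did not overlap. Spry2 was at 23.7, 21.2, 22.7 and 25.9 FPKM in Med23+/+ and 47.6, 36.4, 44.9 and 78.1 FPKM in Med23-/- libraries, a 2.21-fold higher mean and a log2 difference of 1.06 (SE 0.19). The control values were tight, 23.4 ± 1.97 FPKM, while the Med23-/- values spread to 51.7 ± 18.2 FPKM with replicate 4 far above the rest. Without that library the Spry2 log2 difference was 0.84. Spry4 was at 17.1, 16.0, 15.5 and 22.1 FPKM in Med23+/+ and 41.8, 34.5, 36.6 and 58.7 FPKM in Med23-/- libraries. Again replicate 4 was highest on both sides, without overlap between genotypes, and the mean was 2.42-fold higher in Med23-/- cells, with a log2 difference of 1.21 (SE 0.17) and 1.06 without Med23-/- replicate 4. Spred1, which blocks the activation of RAF by RAS, was the exception in size. It was at 57.9, 59.7, 61.9 and 61.9 FPKM in Med23+/+ and 65.9, 72.5, 75.3 and 74.9 FPKM in Med23-/- libraries, so that the genotypes were separate but close. Its mean was 1.20-fold higher in Med23-/- cells, a log2 difference of 0.25 (SE 0.07), and 0.37 after quantile normalization.

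Dusp6 and the Ets factors followed the Sprouty genes. Dusp6 was at 15.3, 12.1, 13.2 and 17.6 FPKM in Med23+/+ and 29.3, 25.0, 34.2 and 46.6 FPKM in Med23-/- libraries. The mean was 2.32-fold higher in Med23-/- cells, a log2 difference of 1.13 (SE 0.18) that became 0.97 without Med23-/- replicate 4. Etv5, the more abundant of the Ets pair, was at 30.9, 29.1, 35.3 and 39.7 FPKM in Med23+/+ and 78.8, 65.5, 81.0 and 118 FPKM in Med23-/- libraries. Its mean went from 33.7 ± 4.76 to 85.8 ± 22.6 FPKM, 2.54-fold higher, with a log2 difference of 1.3 (SE 0.17) and 1.13 without Med23-/- replicate 4. Every Med23-/- library was well above the highest control for both genes. Etv4 was lower overall and more scattered, at 5.68, 5.40, 5.28 and 6.56 FPKM in Med23+/+ and 10.9, 7.43, 10.8 and 18.4 FPKM in Med23-/- libraries. The Med23-/- values ran from just above the highest control to far above it. The mean Etv4 level was 2.07-fold higher, yet on the log2(FPKM + 1) scale the difference was 0.87 (SE 0.21), being 0.61 in replicates 1 and 2 alone, 1.13 in replicates 3 and 4 alone, and 0.65 without Med23-/- replicate 4. The ratio of Etv5 to Etv4 was 5.89 ± 0.605 in Med23+/+ and 7.51 ± 0.991 in Med23-/- cells, with ranges that overlapped (5.39 to 6.67 and 6.43 to 8.82).

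Counted over the 10 genes, every Med23-/- library was above every Med23+/+ library in 8, which held for 16.3% of the 12328 genes that averaged 1 FPKM or more, and every Med23-/- library was below in 1, which held for 15.3%. The genes were chosen from this contrast, so these counts only describe the choice. The ratio of mean FPKM was above 2 in 7 genes. The difference on the log2(FPKM + 1) scale, which is smaller for low genes, was above 1 in 6 of these, all but Etv4, and without Med23-/- replicate 4 in 4, Spry2 and Dusp6 having dropped under 1. In FPKM the order of mean levels in Med23+/+ cells was Spred1, Etv5, Fgfr3, Spry2, Spry4, Dusp6, Spry1, Fgfr1, Etv4 and Fgfr2, and each neighbouring pair from Fgfr3 to Fgfr1 had overlapping ranges. In Med23-/- cells the order was Etv5, Spred1, Spry2, Spry4, Spry1, Dusp6, Fgfr1, Etv4, Fgfr3 and Fgfr2, with overlapping ranges for each neighbouring pair from Etv5 to Fgfr1. Fgfr3 thus went from the third place to the ninth and Fgfr1 from the eighth to the seventh.

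Within a genotype, the feedback and Ets genes also moved together from library to library. The deviations used here leave out the genotype difference, but the genes were chosen from the same 8 libraries. Averaged over the 7 genes, the deviation from the genotype mean of log2(FPKM + 1) was -0.02, -0.12, -0.08 and 0.22 in the Med23+/+ libraries and -0.08, -0.30, -0.07 and 0.45 in the Med23-/- libraries. Replicate 4 was the highest in both genotypes, with 7 of the 7 genes above their genotype mean in each, and Med23-/- replicate 2 was the lowest library of all, with 1 of 7 above. For the 15 pairs among the 6 genes other than Spred1, Pearson's r of these deviations over the 8 libraries ran from 0.774 to 0.985 with a median of 0.912. Spry2 and Etv4 gave the highest of these values. Without Med23-/- replicate 4 the 15 values ran from 0.501 to 0.952 with a median of 0.761. Med23+/+ replicate 4, the highest library of its genotype, was still among those 7 libraries, and r without both was not computed. Spred1 moved little with the rest, at r of 0.181 to 0.443 over its 6 pairs. The receptors did not share the pattern: Fgfr3 had r of -0.85 to -0.67 with the 6 genes, lowest with Etv5, and Fgfr1 had r of -0.14 to 0.36. These values are given as descriptions, because the points of a pair share their libraries and the depth of each library.

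**Figure D3:**
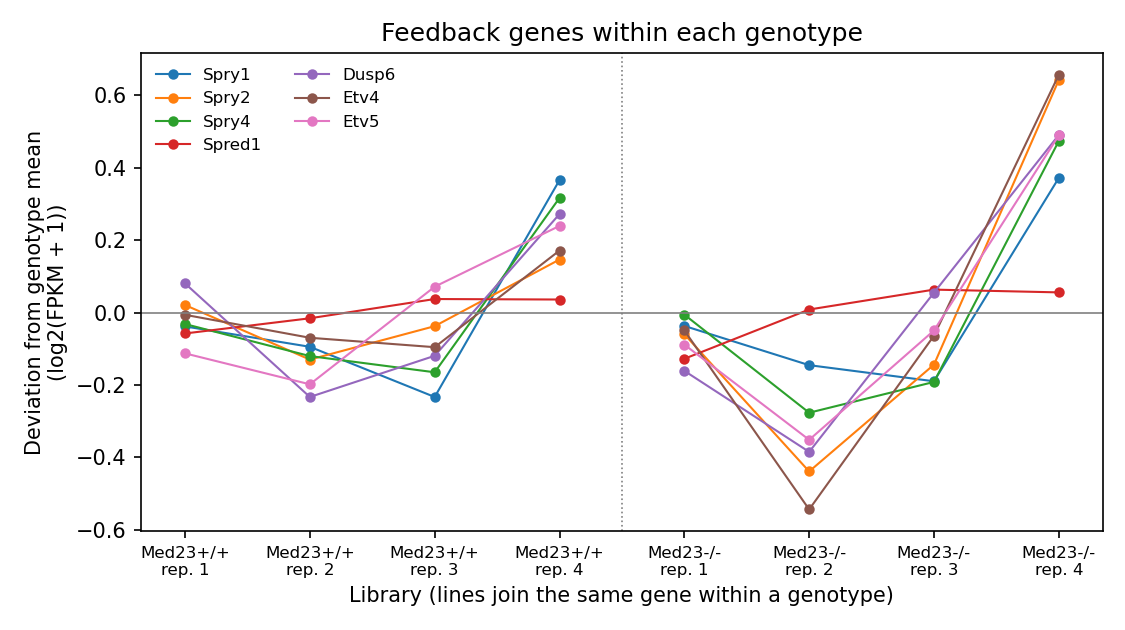
Deviation of each of the 7 feedback and Ets genes from its genotype mean, in units of log2(FPKM + 1), for each library, with lines joining the same gene within a genotype. In both genotypes replicate 4 is high, and Med23-/- replicate 2 is below the mean for all but Spred1, whose values vary least.

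The genes outside the 10 whose deviations were most like the mean of these 7 over the 8 libraries were Polr2f (r = 0.996), which encodes a subunit shared by the nuclear RNA polymerases, Mrpl43 (r = 0.992), for a protein of the mitochondrial ribosome, the histone genes Hist1h2an (r = 0.984) and Hist2h3b (r = 0.979), and Fmn2 (r = 0.982), for an actin nucleator. Without Med23-/- replicate 4 their r was 0.990, 0.982, 0.943, 0.948 and 0.949 in the same order. Such values were not rare, since 182 of 12318 genes reached an r of 0.9. Of 74 other tested genes of the FGF and ERK pathway, 7 had an r of at least 0.8, where 616 of the 12318 genes tested did. The 7, chosen after their values were seen, were Egr1 (0.971), Ccnd1 (0.925), Ier3 (0.912), Spred3 (0.906), Fos (0.893), Spred2 (0.882) and Rasa3 (0.825), of which Egr1, Fos and Ier3 are immediate early genes induced by ERK. Egr1 moved with the Sprouty genes between libraries but was not higher with them in Med23-/- cells. It was at 7.61, 6.85, 8.31 and 10.5 FPKM in Med23+/+ and 3.89, 2.47, 4.75 and 10.1 FPKM in Med23-/- libraries, lower in 3 of the 4 Med23-/- libraries than in any control. Its log2 difference of -0.69 had an adjusted p of 0.112 with limma (Benjamini-Hochberg over all genes tested), and without Med23-/- replicate 4 the difference was -1.002 with an adjusted p of 0.0046. That library was singled out by the genes that Egr1 moved with, so the second p-value is not free of this choice.

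The other genes of the pathway were taken from 6 lists with 100 genes in all, of which 74 had a mean of at least 1 FPKM and were tested with limma. By adjusted p under 0.05, 25 rose and 9 fell in Med23-/- cells and 40 did not pass, where 15.9% of the 12328 genes tested rose and 14.1% fell. With a change above 2-fold on the log2(FPKM + 1) scale as well, the counts were 7 and 2, where 2.98% and 1.75% of all genes tested passed, and with a pseudocount of 0.1 they were 11 and 2. The lower counts stood close to the share of all genes. The median log2 difference of the 74 genes was 0.14, against -0.01 for all genes tested and 1.07 for the 10 genes described above. The lists closest to the 10 genes in role, the other feedback inhibitors and the other ERK-responsive genes, had medians of 0.77 and 0.43, while the kinase core and the adaptors had -0.13 and -0.01. Leaving out each library in turn gave between 20 and 26 genes higher and between 8 and 10 lower.

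**Figure D4:**
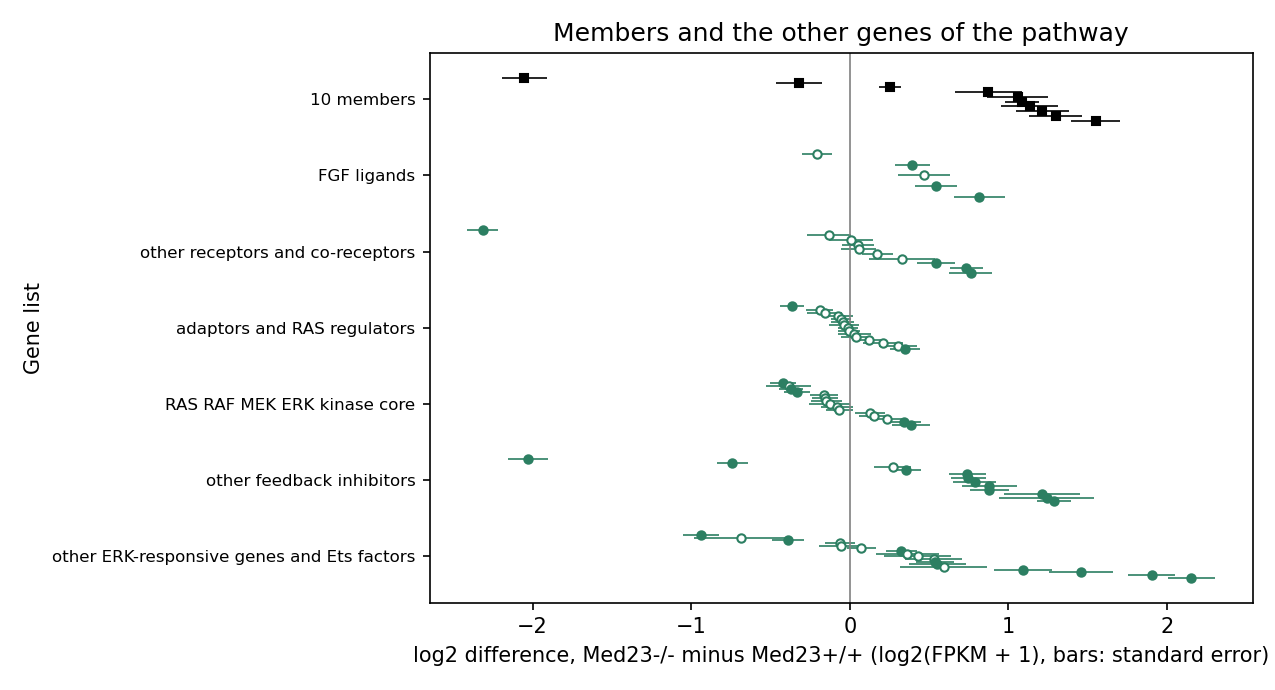
Log2 difference (Med23-/- minus Med23+/+, on log2(FPKM + 1), bars: SE) of the 10 genes as black squares, shown without a test, and of the tested genes of the 6 other pathway lists as green circles, filled where the adjusted p was under 0.05. Most feedback inhibitors lie to the right of 0, with Dusp9 and Dusp7 to the left, and the adaptors and kinases lie close to 0.

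FGF ligand transcripts were scarce in both genotypes. Of 22 genes named Fgf, 5 reached a mean of 1 FPKM, 4 were listed at 0 in every library, and 3 of the 5 tested rose in Med23-/- cells, against 15.9% of all genes tested. Leaving out 1 library gave between 2 and 4 that rose, and replicates 1 and 2 alone gave 0. With no limit on the level, 18 could be tested and 5 rose, where 2050 of all 18429 genes so tested rose. Fgf1, the only receptor-binding ligand among the 5, was at 0.402, 0.823, 0.465 and 0.470 FPKM in Med23+/+ and 1.36, 1.31, 2.11 and 2.12 FPKM in Med23-/- libraries, a log2 difference of 0.82 (SE 0.16). It reached a mean of 1 FPKM only through the Med23-/- libraries, and when all genes were tested with no limit on the level its limma adjusted p was 0.0042. The others belong to the FGF homologous factors, which stay inside the cell, bind sodium channels and are not thought to signal through FGF receptors in the usual way. Fgf14 rose from 4.05 ± 0.409 to 6.44 ± 1.31 FPKM (log2 difference 0.54, limma adjusted p = 0.013). Fgf12, the highest of the list, rose from 8.99 ± 0.938 to 12.2 ± 1.73 FPKM (log2 difference 0.39, limma adjusted p = 0.024), a call that was lost without Med23+/+ replicate 1 or 4 or Med23-/- replicate 3 or 4, with adjusted p up to 0.067. Fgf2, the ligand best known in OPC culture and named here after its values were seen, had means of 0.0647 and 0.0587 FPKM. Fgf9 (means 0.351 and 1.10 FPKM) and Fgf18 (0.014 and 0.181 FPKM), also named after their values were seen, were higher in every Med23-/- library than in any control. Fgf23 (0.0992 and 0.0442 FPKM) was lower in every Med23-/- library than in any control. These ligands did not reach the limit of 1 FPKM for testing.

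Among 14 other receptors and heparan sulphate co-receptors, 10 were tested, of which 3 rose and 1 fell, close to the 15.9% and 14.1% of all genes tested. Gpc3, a glypican anchored to the cell surface, fell from 8.26 ± 0.482 to 0.866 ± 0.149 FPKM, 9.54-fold lower, with a log2 difference of -2.31 (SE 0.10, limma adjusted p = 2.9e-06). The glypicans Gpc1 and Gpc5 rose, from 28 ± 2.21 to 47.4 ± 6.11 FPKM (log2 difference 0.73, limma adjusted p = 0.00084) and from 1.79 ± 0.526 to 3.67 ± 0.180 FPKM (0.76, adjusted p = 0.0030). The syndecan Sdc3, the highest of the list, rose from 67.0 ± 5.85 to 98.8 ± 15.4 FPKM (log2 difference 0.55, limma adjusted p = 0.0075). These 4 calls were kept when any 1 library was left out. Fgfr4 and Fgfrl1, named after their values were seen, had means of 0.110 and 0.0535 FPKM and of 43.6 and 39.6 FPKM, and for Fgfrl1, which lacks the kinase domain of the other receptors, the log2 difference was -0.13 (limma adjusted p = 0.51).

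Most transcripts of the relay between receptor and ERK did not pass. Of 15 adaptors and RAS regulators, 1 rose and 1 fell, against 15.9% and 14.1% of all genes tested. The docking protein gene Gab1 rose from 37.1 ± 3.03 to 47.6 ± 4.88 FPKM (log2 difference 0.35, limma adjusted p = 0.021), a call lost without Med23+/+ replicate 2 or Med23-/- replicate 2 (adjusted p up to 0.053). Sos2, an exchange factor that activates RAS, fell from 18.4 ± 0.896 to 14.1 ± 0.958 FPKM (log2 difference -0.37, limma adjusted p = 0.0057). Rasa3, the most abundant of this list and a GTPase-activating protein that switches RAS proteins off, had means of 49.3 ± 6.13 and 61.1 ± 8.57 FPKM (log2 difference 0.30, limma adjusted p = 0.086). In the RAS, RAF, MEK and ERK core, 3 of 15 genes fell and 2 rose, each by well under 2-fold, which is near the share of all genes tested (14.1% and 15.9%). Araf, a RAF kinase, fell from 51.1 ± 4.73 to 37.8 ± 1.69 FPKM (log2 difference -0.42, limma adjusted p = 0.0041), Nras fell from 50.01 ± 2.997 to 38.4 ± 2.39 FPKM (-0.37, adjusted p = 0.0055), and Map2k2, which encodes MEK2, fell from 42.2 ± 4.16 to 33.3 ± 1.68 FPKM (-0.33, adjusted p = 0.015). The scaffold genes Ksr2 and Ksr1 had log2 differences of 0.38 and 0.34 (limma adjusted p = 0.036 and 0.040), and each lost its call in 6 of the 8 fits that left out 1 library, with adjusted p up to 0.082 and 0.10. Ksr1 kept its call without Med23+/+ replicate 4 or Med23-/- replicate 3, and Ksr2 without Med23+/+ replicate 1 or Med23-/- replicate 2.

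The other feedback inhibitors resembled the Sprouty genes in direction but included genes that went the other way. Of 14 in the list, Spry3 was listed at 0 in every library, 12 were tested, 9 rose and 2 fell, against 15.9% and 14.1% of all genes tested. Leaving out any 1 library gave 8 or 9 that rose and 2 that fell. The phosphatase genes Dusp10, Dusp4 and Dusp5 rose most. Dusp10, whose product acts mainly on the stress kinases p38 and JNK, rose from 3.29 ± 0.281 to 9.51 ± 1.26 FPKM (log2 difference 1.29, SE 0.11, limma adjusted p = 4.5e-05). Dusp5, a nuclear phosphatase specific for ERK, rose from 2.46 ± 0.685 to 7.26 ± 2.55 FPKM (log2 difference 1.21, limma adjusted p = 0.0045). Dusp4 was at 14.5, 6.13, 3.86 and 5.26 FPKM in Med23+/+ and 20.1, 14.9, 18.0 and 15.6 FPKM in Med23-/- libraries (log2 difference 1.24, SE 0.30, limma adjusted p = 0.012), with Med23+/+ replicate 1 close under the lowest Med23-/- library. Spred2, the most abundant of the list and a relative of Spred1, rose from 15.7 ± 1.54 to 30.0 ± 5.52 FPKM (log2 difference 0.88, limma adjusted p = 0.00083), where its relative Spred1 differed by 0.25. The other 5 genes that rose, named after their values were seen, were Dusp1, Dusp16, Dusp8, Il17rd and Errfi1, with log2 differences of 0.88, 0.79, 0.75, 0.74 and 0.35. Errfi1, an inhibitor of the EGF receptor family, lost its call without Med23+/+ replicate 1 or 2 or Med23-/- replicate 1 (adjusted p up to 0.058). Dusp9 and Dusp7 are close relatives of Dusp6 that, like it, act on ERK in the cytoplasm, and both fell. Dusp9 went from 5.05, 4.93, 4.67 and 4.41 FPKM to 0.434, 0.522, 0.563 and 0.159 FPKM, a log2 difference of -2.03 (SE 0.12, limma adjusted p = 1.9e-05). Dusp7 fell from 21.2 ± 1.91 to 12.3 ± 1.28 FPKM (log2 difference -0.74, limma adjusted p = 0.00053). The ERK phosphatases Dusp6, Dusp7 and Dusp9 thus did not share a direction. Gpc3, Dusp9 and Il17rd were under 1 FPKM on average in 1 genotype, and with no limit on the level their limma adjusted p was 2.3e-05, 7.3e-05 and 0.0012.

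Of 20 other ERK-responsive genes and Ets factors, 17 were tested, 7 rose and 2 fell, against 15.9% and 14.1% of all genes tested, so that the 2 that fell are near the background. Ets1, an Ets factor activated by ERK, rose from 3.49 ± 0.616 to 19.1 ± 3.55 FPKM (log2 difference 2.15, SE 0.15, limma adjusted p = 2.3e-05). Phlda1, which is induced by growth factors, rose from 6.04 ± 1.16 to 25.3 ± 4.09 FPKM (log2 difference 1.90, limma adjusted p = 3.6e-05). Ccnd1, which encodes cyclin D1 and links mitogens to the cell cycle, was at 44.9, 51.7, 40.2 and 58.2 FPKM in Med23+/+ and 130, 98.1, 126 and 202 FPKM in Med23-/- libraries (log2 difference 1.46, limma adjusted p = 0.00068). As with the Sprouty genes, replicate 4 was the highest of each genotype. Myc went the other way, from 107 ± 3.45 to 55.8 ± 8.59 FPKM (log2 difference -0.94, limma adjusted p = 0.00031). Elk1, an Ets factor that ERK phosphorylates and that is known to bind MED23, fell from 13.2 ± 1.17 to 9.88 ± 1.17 FPKM (log2 difference -0.39, limma adjusted p = 0.016), a call lost without Med23+/+ replicate 3 (adjusted p = 0.051). The other 4 that rose, named after their values were seen, were Fos (log2 difference 1.09), Ier3 (0.55), Elk3 (0.54) and Etv1 (0.32). Etv1, the third member of the Ets subfamily of Etv4 and Etv5, went from 36.8 ± 4.75 to 46.1 ± 2.67 FPKM and lost its call without Med23+/+ replicate 1 or 2 or Med23-/- replicate 2, 3 or 4 (adjusted p up to 0.077), and Ier3 kept its call only without Med23-/- replicate 2 (adjusted p up to 0.11 in the other fits). Without Med23-/- replicate 4 this list gave 5 that rose and 3 that fell, Egr1 being the added one.

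Markers of the cell types that the cultures could hold were examined beside these values. The cultures expressed oligodendrocyte lineage genes strongly, with Olig1 the highest at 706 ± 170 and 686 ± 108 FPKM. Of 12 lineage markers, 7 fell and 2 rose in Med23-/- cells, against 14.1% and 15.9% of all genes tested. The OPC genes Pdgfra (121 ± 17.2 to 334 ± 9.59 FPKM, limma adjusted p = 2.3e-05) and Cspg4 (38.9 ± 8.38 to 102 ± 12.6 FPKM, adjusted p = 0.00014) rose, and later genes such as Mbp, Mag, Mog, Cnp and Enpp6 fell. Sox10 also fell, losing its call without Med23+/+ replicate 1, 3 or 4 (adjusted p up to 0.056). Olig1, Olig2 and Ptprz1 did not pass (limma adjusted p = 0.95, 0.062 and 0.34). Mag and Mog averaged under 1 FPKM in Med23-/- cells, and with no limit on the level their limma adjusted p was 0.00011 and 0.00049. The OPC and later genes that passed thus moved together with the receptor and feedback genes, and the part of cell stage in the result was not tested. All 7 neuron markers rose, against 15.9% of all genes tested. Their summed level of 148 to 217 FPKM in Med23-/- libraries did not overlap with 80.2 to 110 FPKM in Med23+/+ libraries. Dcx was the highest, at 44.1 ± 5.36 and 63.9 ± 4.05 FPKM, and Syt1 lost its call without Med23+/+ replicate 2 or 3 or Med23-/- replicate 4 (limma adjusted p up to 0.061). The part of neuronal RNA in the result was not tested. Of 8 astrocyte markers, 7 were tested, Slc1a2 rose, and Gfap and Aqp4 fell, where 15.9% of all genes tested rose and 14.1% fell. Gjb6 was at 0 in every control library, and the sums of the astrocyte list overlapped (107 to 154 and 88.5 to 142 FPKM). Slc1a2 lost its call without Med23+/+ replicate 3 or 4 or Med23-/- replicate 3, and Gfap without Med23-/- replicate 1 (limma adjusted p up to 0.062 and 0.057). Aldoc was the highest astrocyte marker, at 50.7 ± 8.80 and 50.9 ± 10.6 FPKM. The other lists were near 0: the 7 microglial markers summed to 0.989 to 1.74 and 1.34 to 1.89 FPKM, most of it P2ry12, and the 6 endothelial markers to 0.496 to 1.17 and 1.13 to 2.97 FPKM, most of it Kdr, with Tie1 listed at 0 in every library. Kdr was at 0.505 ± 0.306 and 1.65 ± 0.902 FPKM and reached a mean of 1 FPKM only through the Med23-/- libraries, with a limma adjusted p of 0.040 that became 0.055 with no limit on the level. The 8 fibroblast and mural markers, led by Col1a1, summed to 1.44 to 12.7 and 3.70 to 20.5 FPKM, and 0 of the 3 tested passed. When the fit also allowed for replicate number, all 3 passed as higher.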

How the data were processed

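RNA-seq libraries of 8 iOL cultures (4 Med23+/+, 4 Med23-/-) were analysed from the deposited table. The authors obtained reads on an Illumina X-10, trimmed with Cutadapt, aligned to mm10 with Tophat2 and quantified with cuffdiff (-b for fragment bias, -u for multi-mapped reads). Versions, annotation and library normalization are not given in the sources used here. The authors deposited FPKM per library for 24346 genes. The deposited p-value and q-value, the authors' log2 fold change, their test statistic (a score) and the pooled FPKM per genotype hold their own comparison and were not used. Library columns left out numbered 0.

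Values were transformed to log2(FPKM + 1), which understates changes of low genes. Genes averaging 1 FPKM or more, 12328 in all, were fitted with limma 3.58.1 in R 4.3.3 (lmFit, eBayes with trend), and p-values were adjusted over all of them by the Benjamini-Hochberg method. A gene passed with an adjusted p under 0.05, and where stated a fold change above 2 was also required. That fold was taken on FPKM + 1, so it is stricter for low genes than the authors' criterion on FPKM. The 10 genes and all lists were chosen with earlier results of these data known. The other pathway genes named are up to 3 in each direction per list with the largest change among those that passed and the most abundant of each list, and for marker lists the most abundant. Not every gene so selected is reported here. Likeness is Pearson's r of deviations from genotype means. Deviations of same-numbered libraries were compared to ask whether numbers pair libraries. The script was tested on simulated data. Alternatives were a pseudocount of 0.1, no filter, a filter at 5 FPKM, a fit without the variance trend, a replicate block, scaling by quantiles or by median ratios, replicates 1 and 2 or 3 and 4 alone, and leaving out each library. Tables used Python 3.11.15 and pandas 2.3.3, and figures matplotlib 3.10.9.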

Additional observations from a re-analysis of the deposited data

Results flagged for a closer look

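In 76 groups of 4 libraries, the 10 genes, the named pathway genes and Med23 in each genotype, 4 groups held 1 library far from the other 3 by Dixon's ratio (the gap to the nearest library over the whole range, set against Dixon's 95% critical value). None of the 20 groups of the 10 genes was among them, and chance flags about 1 in 20 groups. Fgf1 in Med23+/+ replicate 2 was high, at 0.823 FPKM with 0.470 as the next (ratio 0.839). Map2k2 in Med23+/+ replicate 1 was high, at 48.4 FPKM with 41.0 as the next (ratio 0.856). Phlda1 in Med23+/+ replicate 3 was low, at 4.32 FPKM with 6.41 as the next (ratio 0.863). Myc in Med23-/- replicate 3 was low, at 43.2 FPKM with 58.9 as the next (ratio 0.831).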

How the results depend on the processing

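Over 17 alternatives, the log2 differences of the 10 genes gave 169 values, of which 168 moved by less than 1 SD between replicates and 1 moved by more, Spred1 under quantile normalization (0.37 against 0.25), and none changed sign. The 168 include the fits with no filter, a filter at 5 FPKM, a replicate block or no variance trend. Those fits cannot change a gene's log2 difference, so their values are no check of it. Genes past adjusted p numbered 3695 (1957 higher, 1738 lower), 1515 in replicates 1 and 2 alone and 1411 in replicates 3 and 4 alone, where fewer libraries were used. Genes also past 2-fold numbered 583, and 927 with a pseudocount of 0.1. Of the 74 other pathway genes, 34 passed adjusted p, and 14 in replicates 1 and 2 alone, while 9 also passed 2-fold, and 5 with a minimum mean of 5 FPKM, which tests fewer genes. Map2k2 had an adjusted p of up to 0.066 and Ksr1 and Ksr2 of up to 0.14 and 0.16 under other scalings, filters, pseudocounts or variance settings. The replicate numbers did not pair the libraries throughout: same-numbered libraries had correlations of their deviations of 0.13, -0.096, -0.026 and 0.159. Med23+/+ replicates 1 to 4 correlated best with Med23-/- replicates 2, 1, 4 and 4. In the other direction, Med23-/- replicates 1 to 4 correlated best with Med23+/+ replicates 1, 1, 4 and 4. Replicate 4 was thus the best match of its own number in both directions, and a batch shared across genotypes was not tested. With the replicate block 3920 genes and 39 of the pathway genes (29 higher, 10 lower) passed adjusted p, and 587 and 9 also passed 2-fold, and the 3 tested fibroblast and mural markers, 0 of which passed without the block, all passed as higher, while Kdr did not pass. Only FPKM was used, so counting error per library could not be given, which matters most for low genes such as Fgf1 and Fgfr2. On the log2(FPKM + 1) scale their SEs, 0.16 and 0.15, were smaller than that of Etv4 (0.21).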
